A study of Mus musculus with 3 samples.

Results

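Cx3cl1, Cx3cr1, Cxcl16 and Cxcr6 form 2 ligand-receptor pairs, and were followed through single-cell RNA sequencing of mouse glioblastoma. These 4 genes were picked by name, as rows of a count table of 50262 genes. Tumors arose in situ in mice with a conditional human EGFR transgene, a constitutive Cdkn2a deletion and a conditional luciferase reporter, on a mixed background, after a Cre lentivirus had been injected into the striatum. All groups shared these alleles. Brains were dissociated, viable cells were sorted into CD45+ leukocytes and CD45- tumor and other non-immune cells, and mRNA was captured on the inDrop platform, which tags each molecule with a unique molecular identifier (UMI).

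The groups were an early, a medium and a late tumor sample, each divided into the CD45+ and the CD45- sort. The deposited annotation labels the late sample as large. Every stage holds 1 tumor sample, and the study states that samples were pooled where cells were few, which included each of its early samples. After filtering, 11185 CD45+ cells and 6596 CD45- cells were kept, in 24 libraries and 3 sequencing runs, with 5381839 to 10808099 UMIs for each tumor sample and sort. Whether the 24 libraries were all separate cell captures was not tested. Libraries of the same tumor sample and sort shared 1316 cell barcodes and other libraries shared 954, at per-million rates of 61.4 and 7.49 over the pairs of cells that could match, and 2104 kept cells (11.8%) had a barcode that recurred in this way. Results of the sort comparison are therefore also given with 1 cell per shared barcode.

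Cx3cl1 (fractalkine) and Cxcl16 are the only transmembrane chemokines. In each, a chemokine domain sits on a mucin-like stalk above a membrane-spanning segment, so the ligand can tether a cell that carries its receptor, and it becomes a soluble attractant once proteases such as ADAM10 and ADAM17 cut the stalk. CX3CR1 is the receptor of Cx3cl1 and is known in brain as a marker of microglia, which contact Cx3cl1-bearing neurons, while monocytes and some lymphocytes also carry it. CXCR6 is the receptor of Cxcl16 and is known for activated and tissue-resident T cells and natural killer (NK) cells. Cxcl16 also acts as a scavenger receptor for oxidised lipoprotein.

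The ligands belong to different chemokine families, which are named for the spacing of the first pair of cysteines, and this spacing can be read from their coding sequence. Both stretches lie in exon 2 of GRCm38 and are shown because they carry that motif. Each is given 5′ to 3′ on the coding strand, with the codons from the first to the second cysteine of the pair in capitals.
Cx3cl1, chr8:94778033-94778083, plus strand: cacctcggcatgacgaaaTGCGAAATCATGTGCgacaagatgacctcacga
Cxcl16, chr11:70459109-70459153, minus strand: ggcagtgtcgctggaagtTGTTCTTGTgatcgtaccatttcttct
Cysteine codons 32 and 36 of Cx3cl1 have 3 codons between them (CX3C), and codons 35 and 37 of Cxcl16 have 1 (CXC). Cx3cl1 (ENSMUSG00000031778) spans chr8:94772009-94782427, and Cxcl16 (ENSMUSG00000018920) spans chr11:70453983-70459984. The receptor genes lie on chromosome 9, Cx3cr1 (ENSMUSG00000052336) at chr9:119901616-120069879 and Cxcr6 (ENSMUSG00000048521) at chr9:123806475-123811760. Of the 3021 exon bases of Cxcl16, 552 overlap exons of Zmynd15 on the other strand. Of Cx3cr1, 78 of 4505 exon bases overlap exons of Gm33858, while the exons of Cx3cl1 and Cxcr6 overlap exons of no other gene.

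The sorts were compared to ask which compartment held each ligand and each receptor. One ligand lay with the CD45- cells, and the other ligand and both receptors lay with the CD45+ cells, in all 3 tumor samples. Levels are given as UMI counts-per-million (CPM), relative to all UMIs of the cells summed, in the order early, medium and late. Ptprc, which encodes CD45 and checks the sort, stood at 250.2, 239.5 and 227.1 CPM in CD45+ cells and at 15.9, 11.1 and 3.59 CPM in CD45- cells. In bulk sums of this kind, fewer cells of a type and less RNA per cell cannot be told apart.

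Cx3cl1 was measured at 42.0, 37.8 and 64.3 CPM in the CD45- sort and at 10.3, 4.11 and 7.62 CPM in the CD45+ sort. Of the 40 UMIs behind the medium CD45+ value, 20 came from its run 1 library, without which it was 2.46 CPM. The sorts did not overlap, and the late CD45- sum was the highest. The log2 fold change of CD45+ over CD45- was -2.38 (SE 0.28; adjusted p = 0.00045, edgeR quasi-likelihood test, n = 3 pairs), which is 5.20-fold lower in CD45+ cells. Its receptor gene Cx3cr1 showed the opposite distribution, with 4820, 1751 and 3306 CPM in CD45+ cells against 384.6, 144.2 and 47.1 CPM in CD45- cells. The log2 fold change was 4.78 (SE 0.61; edgeR adjusted p = 0.00094). In the CD45- sort, Cx3cr1 and Ptprc were both highest in the early and lowest in the late sample.

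Cxcl16 stood at 159.5, 242.8 and 207.9 CPM in CD45+ cells and at 17.2, 12.8 and 3.59 CPM in CD45- cells. Of the 38 UMIs behind the late CD45- value, 23 came from 1 library, without which it was 2.20 CPM. The ranges were far apart, and the log2 fold change was 4.74 (SE 0.53; edgeR adjusted p = 0.00052). Cxcr6 was detected at 33.5, 25.3 and 31.0 CPM in CD45+ cells, from 775 UMIs. Only 3 Cxcr6 UMIs were found among all CD45- cells, all in the early sample, which sets the ratio of summed counts at 251.7 with a counting interval of 85.8 to 1223. The fitted log2 fold change was 8.17 (SE 0.60, edgeR adjusted p = 0.00011). The medium and late CD45- sums held none, which allows up to 0.457 and 0.283 CPM (3 counts).

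**Figure D1:**
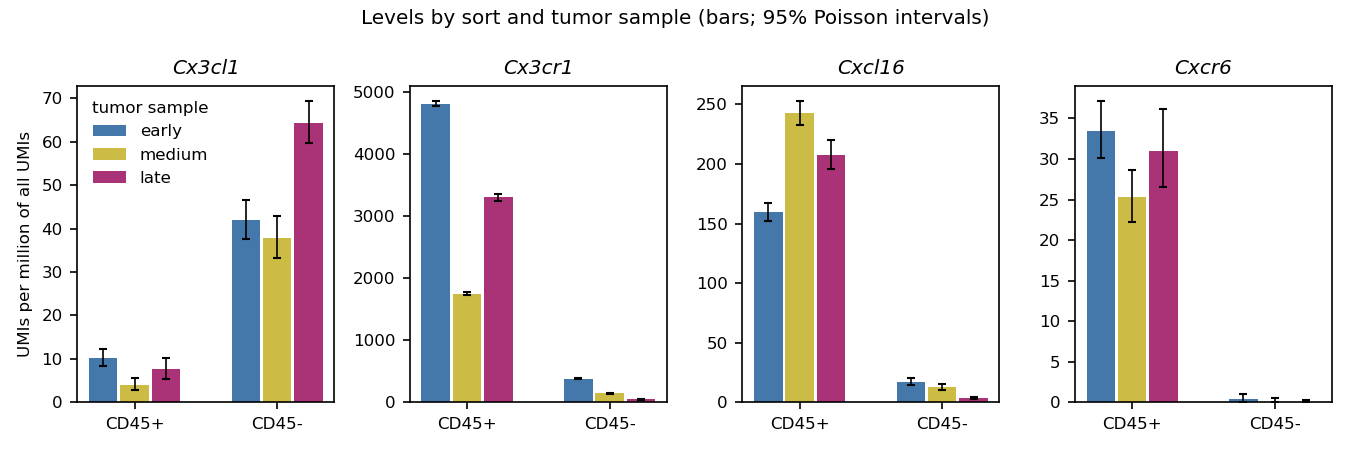
CPM of Cx3cl1, Cx3cr1, Cxcl16 and Cxcr6 in the CD45+ and CD45- sorts of the early, medium and late tumor samples (1 tumor sample per bar; error bars are exact 95% Poisson intervals, which cover counting error only). Cx3cl1 is higher in the CD45- sort of every tumor sample, from 37.8 to 64.3 against 4.11 to 10.3, and the other 3 genes are higher in the CD45+ sort.

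All 4 genes passed the threshold of 0.05, where 46.1% of the 19488 genes tested did. With 1 cell per shared barcode, under each normalization and with any tumor sample left out, the direction and call of each gene were kept. When neuron-like cells were left out of both sorts, the Cx3cl1 difference was -2.89 on the log2 scale. Within run 1 alone it was -1.26 (edgeR adjusted p = 0.044).

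Cells were then grouped into classes by marker genes that did not include these 4 genes, to ask which cells of each sort were the source. A class is written with "-like" because it rests on RNA markers alone. Only sums of at least 20 cells per tumor sample are given.

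Neuron-like cells held more Cx3cl1 UMIs than any other class of the CD45- sort in each of the 3 samples. They were 346 of the 6596 CD45- cells (5.25%) and held 756 of the 1269 Cx3cl1 UMIs of that sort (59.6%, exact 95% interval 56.8 to 62.3, for the samples summed). The early, medium and late samples gave shares of 56.5%, 33.5% and 70.6%. Their level was 270.1, 296.0 and 581.7 CPM, and this range lay above that of every other CD45- class compared in all 3 samples. The late over early log2 ratio was 1.11 (counting interval 0.86 to 1.36), with 1 tumor sample each, and it was higher in the late sample in each of the 3 runs (452.0 to 659.0 against 248.9 to 305.4 CPM). After thinning every cell to 1000 UMIs, 20.5%, 18.4% and 35.9% of neuron-like cells had a Cx3cl1 UMI, against 37.7%, 51.3% and 66.0% before thinning. Thinning left out 8, 1 and 8 cells.

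The neuron-like class was made of unlike clusters. A cluster led by Syt1 and Snap25, genes of synaptic vesicle release, held all 756 UMIs in 261 cells (524 CPM, and 386.1, 442.4 and 634.5 CPM by tumor sample). A cluster led by Dlx2, Igfbpl1 and Dlx1, genes of immature forebrain interneurons, held 0 in 85 cells, which allows up to 7.998 CPM (3 counts). The share of the Syt1-led cluster in the class was 100 of 154 cells in the early, 23 of 39 in the medium and 138 of 153 in the late sample, so the makeup of the class moved with its level, and the Syt1-led cluster alone was also highest in the late sample. The cells of the early CD45+ sort named neuron-like, 26 in number, also had Cx3cl1 at 708.5 CPM, and in the whole CD45+ sort 43 such cells held 125 of the 192 Cx3cl1 UMIs (65.1%, and 71.2%, 32.5% and 80.5% by sample). These same 26 cells had Cx3cr1 at 816.1 CPM, from 91 UMIs, beside 76 UMIs of the microglial genes P2ry12 and Tmem119. That is 1.20 Cx3cr1 UMIs for each UMI of this gene pair (counting interval 0.87 to 1.65), against 1.24 in early microglia-like cells. The part of microglial RNA in these 26 cells was not tested.

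By mean level fibroblast-like cells followed, with 88.7, 175.6 and 217.5 CPM and 132 UMIs (10.4% of the sort), while by share of UMIs glioma or oligodendrocyte progenitor-like cells were next, with 221 (17.4%). This place depended on naming: with each cell named on its own the fibroblast-like mean was 84.5 against 160.6 CPM. The endothelial-like mean ranged from 80.9 to 89.9 CPM over the alternatives. In fibroblast-like cells the late over early log2 ratio was 1.29 (counting interval 0.61 to 2.00). Their clusters led by Aldh1a2 and by Sfrp4 had 177.1 and 197.1 CPM, and the Ccn3-led cluster had 88.6 CPM. The makeup of the class differed by sample, since 41 of 99 early and 35 of 57 late cells lay outside the Ccn3-led cluster. Without that cluster the late over early log2 ratio was 1.48 (counting interval 0.60 to 2.45). Endothelial-like cells, a known source of fractalkine at the vessel wall, had 102.7, 84.1 and 69.9 CPM, from 24, 18 and 9 UMIs. The intervals of these values overlapped. Ependymal-like cells were counted only in the early sample, at 63.4 CPM. Astrocyte-like cells had 27.3, 37.3 and 47.7 CPM, from 13 UMIs in all, and choroid plexus-like cells had 11.6, 42.8 and 45.4 CPM. Apart from the neuron-like class, neighbours in this order overlapped in their ranges over the tumor samples.

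Oligodendrocyte-like cells, the largest CD45- class with 2667 cells, had only 3 Cx3cl1 UMIs, at 0.286, 0 and 0.995 CPM. Against them, Cx3cl1 was higher in endothelial-like cells by a ratio of summed counts of 227.5 (51 against 3 UMIs, counting interval 73.6 to 1140). The fitted log2 fold change was 7.02, or 129.5-fold (SE 0.82, edgeR adjusted p = 1.6e-08), where 27.6% of all genes tested were called. The ratio of summed counts was 57.3 for glioma or oligodendrocyte progenitor-like cells (221 against 3 UMIs, interval 19.4 to 280.0, edgeR adjusted p = 3.5e-07), where 28.5% were called. On the log2 scale this fit gave 5.84, with 4.65 without the early and 7.02 without the late sample. For astrocyte-like cells the ratio of summed counts was 86.6 (13 against 3 UMIs, interval 23.8 to 473.7), and no test is given at under 50 UMIs. Neutrophil-like cells had no Cx3cl1 UMI in 333 cells and T cell-like cells had 2 in 801.

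Glioma or oligodendrocyte progenitor-like cells had Cx3cl1 at 106.1, 23.5 and 16.1 CPM, the reverse of the order in neuron-like cells. The late over early log2 ratio was -2.72 (counting interval -3.22 to -2.21). The class changed in makeup along with this. UMIs of the human EGFR transgene were found in 4 of 174 of its early cells, 309 of 445 medium cells and 935 of 1145 late cells, and in the whole CD45- sort at 7.28, 706.4 and 1220 CPM. Cells of this class without a transgene UMI had Cx3cl1 at 111.5, 71.0 and 50.9 CPM. Cells with one had 0, 13.9 and 13.4 CPM, while their median depth was higher, at 5621 to 6530 UMIs against 1724 to 2993. The value 0 comes from the 4 early cells and allows up to 132.1 CPM (3 counts).

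The largest clusters of this class divided in the same way. Smaller ones, such as the Cyp19a1-led cluster (57 CD45- cells), are not listed. Those led by Sox21, Tmem255b and Gpc5, which shared Susd5, C1ql2 and Pdgfra (a progenitor marker) among their leading genes, had 126.3, 124.7 and 102.1 CPM of Cx3cl1 and 0, 103.9 and 0 CPM of the transgene. The clusters led by Gpr17 and by Fbln2 had 16.8 and 10.3 CPM of Cx3cl1 with 2608 and 1332 CPM of the transgene. This split by transgene UMIs was made after the levels had been seen and was not tested. Across the whole class, neuron-like cells had more Cx3cl1 than glioma or oligodendrocyte progenitor-like cells, by 3.20 on the log2 scale (SE 0.54; edgeR adjusted p = 2.0e-05). The difference was 4.45 without the early and 2.28 without the late sample, and the ratio of summed counts was 18.65 (counting interval 16.0 to 21.8). This comparison was added after the levels were seen, and 24% of all genes tested were called in it.

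**Figure D2:**
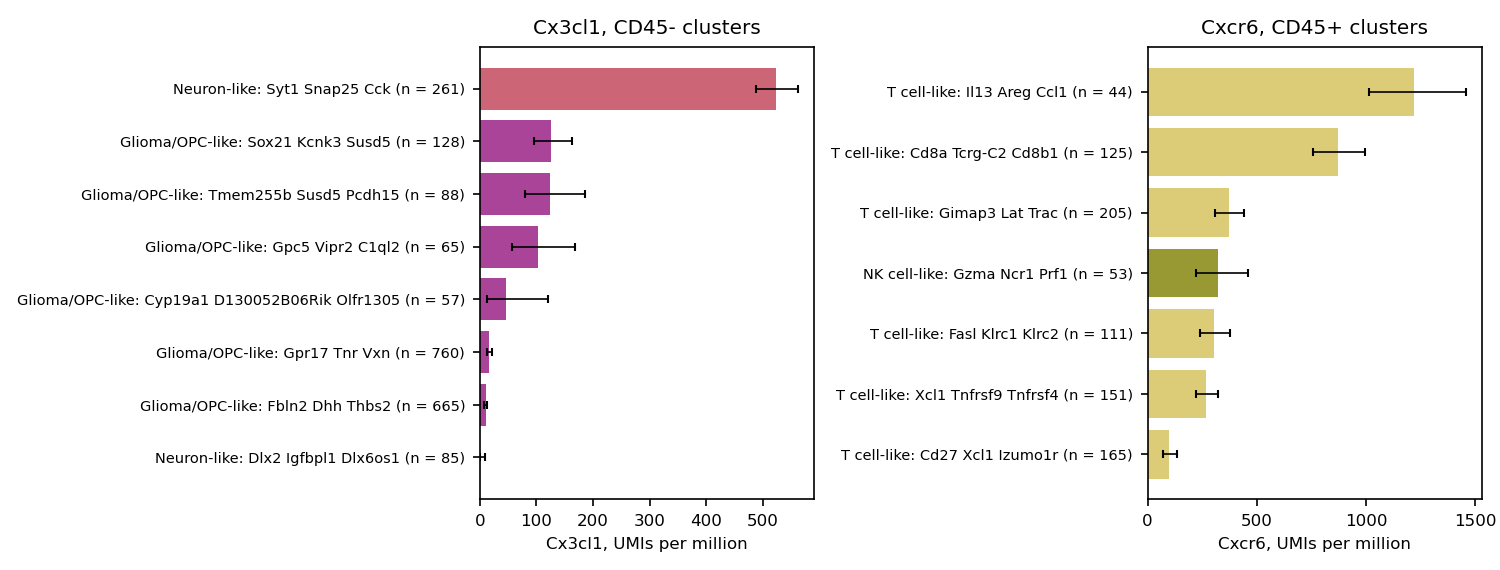
Left, Cx3cl1 (CPM) in the CD45- clusters named neuron-like or glioma or oligodendrocyte progenitor-like (Glioma/OPC); right, Cxcr6 in the CD45+ clusters named T cell-like or NK cell-like. Bars sum the 3 tumor samples, error bars are exact 95% Poisson intervals, and labels give the leading genes and cell number. Cx3cl1 is 524 in the Syt1-led cluster and 0 in the Dlx2-led cluster, and Cxcr6 runs from 99.1 in the Cd27-led to 1221 in the Il13-led cluster.

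Cx3cr1 was concentrated in microglia-like cells, which were 5581 of the 11185 CD45+ cells and held 66191 of the 86915 Cx3cr1 UMIs of that sort (76.2%). The early, medium and late shares were 91.1%, 39.1% and 67.9% of the UMIs, with 77.2%, 16.8% and 46.5% of the cells. In the medium sample macrophage or monocyte-like cells held more, at 40.6% of the UMIs with 38.2% of the cells. The microglia-like level was 5866, 5388 and 6045 CPM, and 97.5%, 96.4% and 97.6% of them had a UMI after thinning to 1000 UMIs. The 3 main microglia-like clusters differed little, at 5621 CPM in the cluster led by Tnf and Gpr84, 5799 CPM in that led by P2ry12 and 6491 CPM in that led by Hspa1b. Microglia-like cells that fell into the CD45- sort, 306 in number, had 5430, 4168 and 6911 CPM and held 80.3% of the Cx3cr1 UMIs there (85.2%, 61.7% and 84.97% by sample). The fall of Cx3cr1 in the CD45- sort from 384.6 to 47.1 CPM went with the number of these cells, which was 215 of 2725 cells in the early, 63 of 1603 in the medium and 28 of 2268 in the late sample.

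In the CD45+ sort, the level of Cx3cr1 over all cells also moved with class makeup. Microglia-like cells were 3930 of 5091 cells in the early, 669 of 3983 in the medium and 982 of 2111 in the late sample, in the same order as Cx3cr1 at 4820, 1751 and 3306 CPM. Within the class the medium over early log2 ratio was -0.12 (counting interval -0.16 to -0.09) and the late over early ratio was 0.04 (0.01 to 0.07).

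Macrophage or monocyte-like cells came next, at 2592, 2032 and 2149 CPM. The ranges of the 2 classes did not overlap, and the log2 fold change of microglia-like over macrophage or monocyte-like cells was 1.27 (SE 0.41). This did not pass the test (edgeR adjusted p = 0.061), and it passed under DESeq2 (1.34, adjusted p = 0.013) and with only these 2 classes in the fit (1.20, edgeR adjusted p = 1.6e-07). Of all genes tested, 13.2% were called. Clusters within the macrophage or monocyte-like class spanned a wide range, from 219.7 CPM in the cluster led by Ear6 and Treml4 and 843.7 CPM in that led by Ly6i, Ms4a4c and Ccr2 (the chemokine receptor of inflammatory monocytes) to 2111 CPM in that led by Rnase2a and Arg1, 2403 CPM in that with Cxcl9 among its leading genes and 2736 CPM in that led by Napsa. Border or perivascular macrophage-like cells had 1750, 1276 and 1806 CPM.

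Dendritic cell-like cells had Cx3cr1 at 224.5, 171.5 and 517.9 CPM, below the macrophage or monocyte-like range, with a log2 fold change of -3.07 (SE 0.47; edgeR adjusted p = 0.00069). Of all genes tested, 9.63% were called. When each cell was named on its own rather than by cluster, which renamed every class and put macrophage or monocyte-like cells at a mean of 1474 against 2258 CPM, the difference was 0.49 (edgeR adjusted p = 0.89). The cause was not tested.

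T cell-like cells had Cx3cr1 at 1100, 1064 and 676.4 CPM. In the same cells the UMIs of P2ry12 and Tmem119, genes of microglia that T cells should lack, were counted. For each UMI of this gene pair, T cell-like cells had 1.43, 2.78 and 1.87 Cx3cr1 UMIs. Microglia-like cells had 1.24, 1.39 and 1.37, and macrophage or monocyte-like cells had 2.56, 3.50 and 4.85. T cell-like cells with no UMI of the pair (208, 289 and 91 cells) had Cx3cr1 at 242.9, 510.3 and 165.9 CPM, and those with one (87, 104 and 22 cells) had 2805, 2537 and 2345 CPM. The median depth was 1719.5, 1909 and 1734 UMIs in the former and 2149, 2049.5 and 2400.5 in the latter.

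By cluster, Cx3cr1 was 1849 and 3560 CPM in the T cell-like clusters led by Cd27 and by Fasl, which had 488.3 and 2571 CPM of the microglial gene pair. In the other 4 T cell-like clusters it was 84.5 to 161.3 CPM, beside 10.01 to 66.96 CPM of the pair. One neutrophil-like cluster showed the same, with 2340 CPM of Cx3cr1 beside 1562 CPM of the pair, while the other 4 had 12.7 to 228.4 CPM. In classes where Cx3cr1 served as a measure of background, B cell-like cells (medium) had 232.6 CPM and oligodendrocyte-like cells had 12.6, 3.63 and 4.48 CPM in the CD45- sort and 760.1 CPM in the early CD45+ sort (49 cells). After thinning, 12.4% of B cell-like cells (unthinned 20.2%, median 2741 UMIs) had a Cx3cr1 UMI, against 32.6%, 38.9% and 21.5% of T cell-like cells (unthinned 40.7%, 43.3% and 30.1%, median 1772 to 1927 UMIs). The part of microglial RNA in the Cx3cr1 of T cell-like cells was not tested beyond these values.

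Macrophage or monocyte-like cells had more Cx3cr1 than T cell-like cells by 1.31 on the log2 scale (SE 0.42; edgeR adjusted p = 0.043), and 19.4% of all genes tested were called. Without the early sample this did not pass (1.36, edgeR adjusted p = 0.11), nor without TMM factors (1.19, edgeR adjusted p = 0.10). Over its 10 alternatives the difference ranged from 0.69 to 2.98. The T cell-like sums of the main fit included cells with P2ry12 and Tmem119 UMIs. Without those cells the T cell-like mean was 306.4 against 946.8 CPM. NK cell-like cells had 4 and 1 Cx3cr1 UMIs in the early and medium samples, from 24 and 25 cells, and the T cell-like over NK cell-like log2 fold change was 4.82 (SE 0.85; edgeR adjusted p = 0.0084). Here 2.43% of all genes tested were called, and the median log2 fold change of all genes was 0.928. The Cx3cr1 difference was 0.20 with each cell named on its own, and did not pass there or without TMM factors. NK cell-like sums of at least 20 cells came from the early and medium samples only. Without the early sample, which leaves 1 NK cell-like sum assumed to vary like the other classes, the difference did not pass (5.76, edgeR adjusted p = 0.12). The 4 T cell-like clusters with 10.01 to 66.96 CPM of the microglial pair stood close to the NK cell-like cluster, at 84.5 to 161.3 against 81.2 CPM of Cx3cr1.

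**Figure D3:**
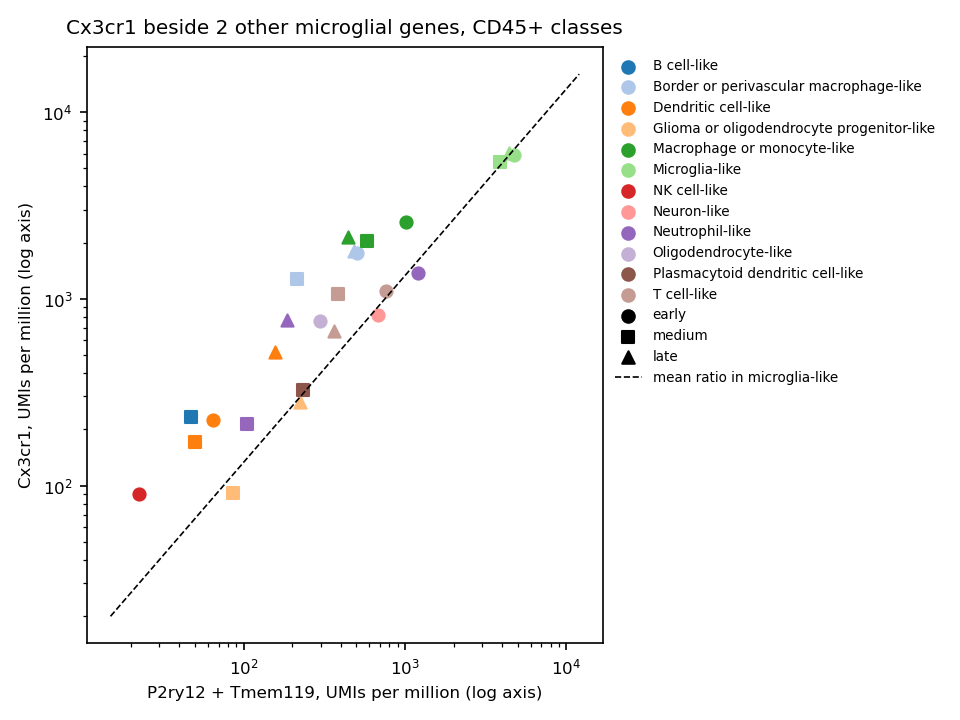
Cx3cr1 against the sum of P2ry12 and Tmem119, both in CPM on log axes, for each CD45+ class of at least 20 cells in the early (circle), medium (square) and late (triangle) tumor samples; NK cell-like cells of the medium sample, with 0 UMIs on the horizontal axis, are not drawn. The dashed line is the mean ratio in microglia-like cells. T cell-like sums lie above it, at 1.43 to 2.78 Cx3cr1 UMIs for each UMI of the pair, and macrophage or monocyte-like sums lie at 2.56 to 4.85. The counting interval of the early T cell-like ratio (1.275 to 1.614) overlaps those of microglia-like cells (1.22 to 1.44).

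Border or perivascular macrophage-like cells also lay above this line, with 3.45, 5.98 and 3.76 Cx3cr1 UMIs for each UMI of the pair. Their counting intervals (2.92 to 7.94 over the 3 samples) did not overlap those of microglia-like cells (1.22 to 1.44), and their range overlapped that of macrophage or monocyte-like cells.

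Cxcl16 had several sources. In the CD45+ sort, macrophage or monocyte-like cells held 44.7% of its 5205 UMIs with 21.6% of the cells, and microglia-like cells held 34.45% with 49.9% of the cells, for the samples summed. The order of these shares differed by sample. Microglia-like cells held 73.5% against 12.6% in the early sample, but 9.53% against 61.6% in the medium and 26.8% against 58.4% in the late sample. Levels were 366.7, 427.8 and 332.9 CPM in macrophage or monocyte-like cells and 156.7, 181.9 and 150.2 CPM in microglia-like cells, with no overlap. The log2 fold change of microglia-like over macrophage or monocyte-like cells was -1.28 (SE 0.27; edgeR adjusted p = 0.00050). After thinning, 23.2%, 28.5% and 23.8% of macrophage or monocyte-like and 11.8%, 13.6% and 11.7% of microglia-like cells had a UMI, against 39.3%, 45.3% and 48.7% and 19.44%, 20.03% and 19.45% unthinned. Oligodendrocyte-like cells had 0 Cxcl16 UMIs in 2667 cells of the CD45- sort.

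Dendritic cell-like cells had 319.0, 541.2 and 279.5 CPM of Cxcl16. Against macrophage or monocyte-like cells the log2 fold change was -0.04 (SE 0.28; edgeR adjusted p = 0.97), and the ratio of summed counts was 1.10 with a counting interval of 0.97 to 1.25. Their highest cluster was led by Ccr7, the homing receptor of migratory dendritic cells, with 944.3 CPM (counting interval 722.3 to 1213, 30 cells). The clusters led by Xcr1 and by Cd209a had 392.2 and 347.3 CPM. Zmynd15, whose exons overlap those of Cxcl16, was among the leading genes of the Ccr7-led cluster, at 1130 CPM (counting interval 885.8 to 1421). The sources do not state whether counting used strand, so reads of the shared bases cannot be assigned.

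Within the microglia-like class, Cxcl16 was 195.8 CPM (counting interval 185.1 to 207.0) in the cluster led by Tnf, Gpr84 and Il1a, 133.7 CPM (119.4 to 149.2) in the P2ry12-led cluster and 83.8 CPM (72.7 to 96.1) in the Hspa1b-led cluster. The Tnf-led cluster was above the Hspa1b-led cluster in each tumor sample, at 197.0, 232.4 and 167.9 against 88.9, 38.7 and 81.0 CPM. Against the P2ry12-led cluster, with 115.1, 158.8 and 175.1 CPM, it was higher in the early and medium samples and lower in the late sample. Cx3cr1 did not follow this order, since it was highest in the Hspa1b-led cluster. In the macrophage or monocyte-like class, the Ear6-led cluster was lowest for Cxcl16 as for Cx3cr1, at 48.8 CPM, and the Ly6i-led cluster was highest, at 466.1 CPM.

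T cell-like cells had Cxcl16 at 71.3, 109.4 and 29.9 CPM, below macrophage or monocyte-like cells by 2.47 on the log2 scale (SE 0.30; edgeR adjusted p = 1.8e-08). T cell-like cells without P2ry12 and Tmem119 UMIs had 30.9, 77.6 and 24.4 CPM, and those with such UMIs had 151.6, 194.2 and 47.9 CPM, the last from 3 UMIs. NK cell-like cells had 1 Cxcl16 UMI in all, and the ratio of T cell-like to NK cell-like cells was 7.75 with a counting interval of 1.37 to 308.0 (edgeR adjusted p = 0.047), a call lost under DESeq2 (adjusted p = 0.48). The fitted log2 fold change was 3.49, against a median of 0.928 for all genes. Without the early or the medium sample it did not pass either (edgeR adjusted p = 0.46 and 0.34), with only 1 NK cell-like sum left. Among CD45- cells, Cxcl16 was found in microglia-like cells (36.8% of 261 UMIs), fibroblast-like cells (29.9%) and macrophage or monocyte-like cells (18.01%), with the samples summed. Microglia-like cells led in the early sample (77 of 139 UMIs), macrophage or monocyte-like cells in the medium (34 of 84) and fibroblast-like cells in the late sample (26 of 38). The fibroblast-like level was 100.9, 64.2 and 110.9 CPM. Endothelial-like cells had 4.28, 9.34 and 38.8 CPM from 1, 2 and 5 UMIs, and glioma or oligodendrocyte progenitor-like cells had 3 UMIs in 1764 cells.

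**Figure D4:**
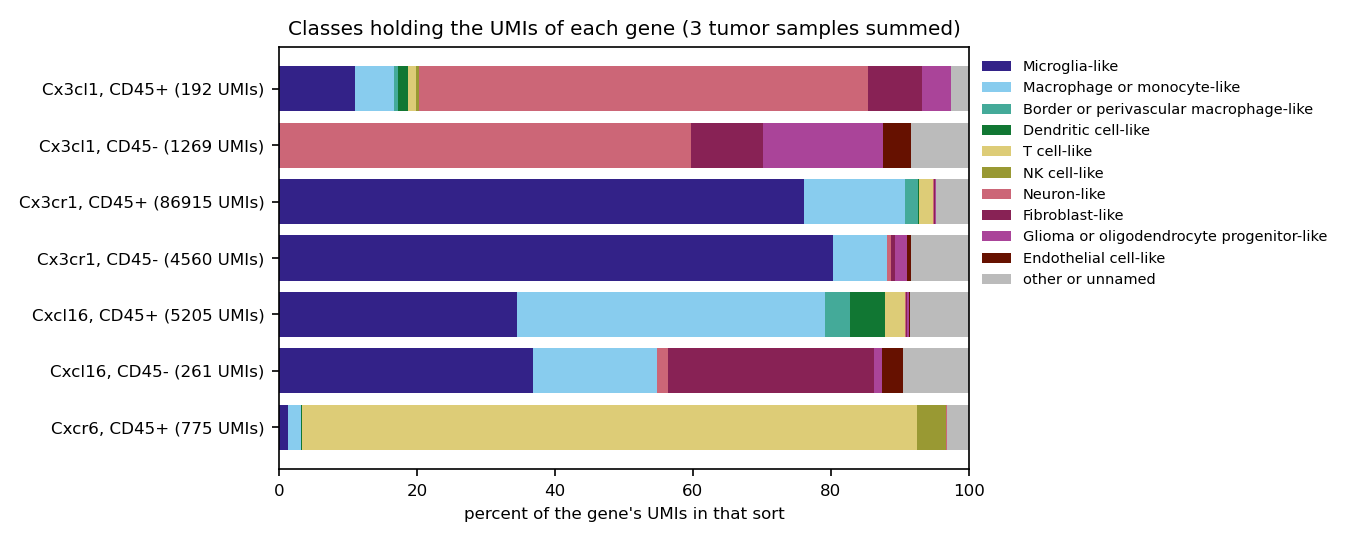
Percent of the UMIs of each gene that fell in each class, by sort, with the 3 tumor samples summed; Cxcr6 in the CD45- sort had 3 UMIs and is not drawn. Neuron-like cells hold 59.6% of Cx3cl1 in the CD45- sort, microglia-like cells hold 76.2% of Cx3cr1 in the CD45+ sort, macrophage or monocyte-like and microglia-like cells hold 44.7% and 34.45% of Cxcl16, and T cell-like cells hold 89.2% of Cxcr6. In single samples the order of these classes can differ, with macrophage or monocyte-like cells ahead for Cx3cr1 in the medium and microglia-like cells ahead for Cxcl16 in the early sample.

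Cxcr6 was the most restricted of the 4 genes. T cell-like cells were 7.16% of CD45+ cells and held 691 of its 775 UMIs (89.2%, exact 95% interval 86.8 to 91.3, and 90.9%, 82.5% and 95.2% by sample), and NK cell-like cells held 32 (4.13%). The T cell-like level was 521.4, 228.9 and 594.2 CPM. The medium over early log2 ratio was -1.19 (counting interval -1.45 to -0.93) and the late over early ratio was 0.19 (-0.09 to 0.47). In runs 2 and 3, which had T cell-like sums in every sample, the medium level was 180.0 to 254.7 CPM and the others were 485.8 to 676.0 CPM. The late level rested on 1 cluster, led by Il13, which held 110 of the 159 late UMIs in 37 of the 113 late cells. Without this cluster the levels were 510.5, 228.0 and 273.9 CPM, the medium and late counting intervals overlapped (197.6 to 261.8 and 202.6 to 362.1 CPM), and the late over early log2 ratio was -0.90 (-1.36 to -0.46). After thinning, 28.62%, 16.37% and 28.04% of T cell-like cells had a UMI (38.0%, 21.1% and 44.2% unthinned), against at most 0.107% of microglia-like cells (at most 0.178% unthinned), the class that should lack the gene.

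NK cell-like cells had Cxcr6 at 313.8 and 336.1 CPM from 14 and 16 UMIs. Against them T cell-like cells differed by 0.92 on the log2 scale (SE 0.46), which did not pass (edgeR adjusted p = 0.30). The median log2 fold change of all genes in this fit was 0.928, so Cxcr6 lay at the median. The ratio of summed counts was 1.19 with a counting interval of 0.83 to 1.78. Macrophage or monocyte-like cells had 0, 3.23 and 1.53 CPM, and were lower than T cell-like cells by 164.8-fold in summed counts (counting interval 97.6 to 303.1; edgeR log2 fold change -7.20, SE 0.46, adjusted p = 1.6e-16). Among classes with sums in more than 1 tumor sample, neutrophil-like cells came next after T cell-like and NK cell-like cells in the order of means. They had 27.8, 3.68 and 0 CPM from 7 UMIs. Plasmacytoid dendritic cell-like and B cell-like cells, summed in the medium sample only, had 20.2 and 12.6 CPM from 2 and 8 UMIs.

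Lymphocyte clusters differed widely in Cxcr6. The highest level, 1221 CPM (counting interval 1014 to 1458), was in a cluster of 44 cells led by Il13, Areg, Ccl1 and Gata3, genes of type 2 immune responses. Of these cells 37 came from the late sample. The Cd8a-led cluster of cytotoxic T cells followed with 871.3 CPM (757.5 to 997.5), with 1142 CPM when the early cells were taken alone and 595.1 CPM for the medium cells. The other 4 T cell-like clusters had 99.1 to 371.3 CPM. The lowest, led by Cd27, and the one led by Fasl were those with 488.3 and 2571 CPM of P2ry12 and Tmem119.

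Without P2ry12 and Tmem119 UMIs, T cell-like cells had Cxcr6 at 592.9, 266.8 and 702.7 CPM, and at 582.2, 265.8 and 292.5 CPM when the Il13-led cluster was also left out. T cell-like cells with a UMI of Cd8a or Cd8b1 had 671.1, 353.8 and 576.5 CPM of Cxcr6. Those without had 378.2, 158.6 and 597.3 CPM. Cd8-bearing cells were higher in the early and medium samples, where the counting intervals did not overlap, and the intervals overlapped in the late sample (19 cells with Cd8). Without the Il13-led cluster, late cells lacking Cd8 UMIs had 199.7 CPM (133.7 to 286.8).

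**Figure D5:**
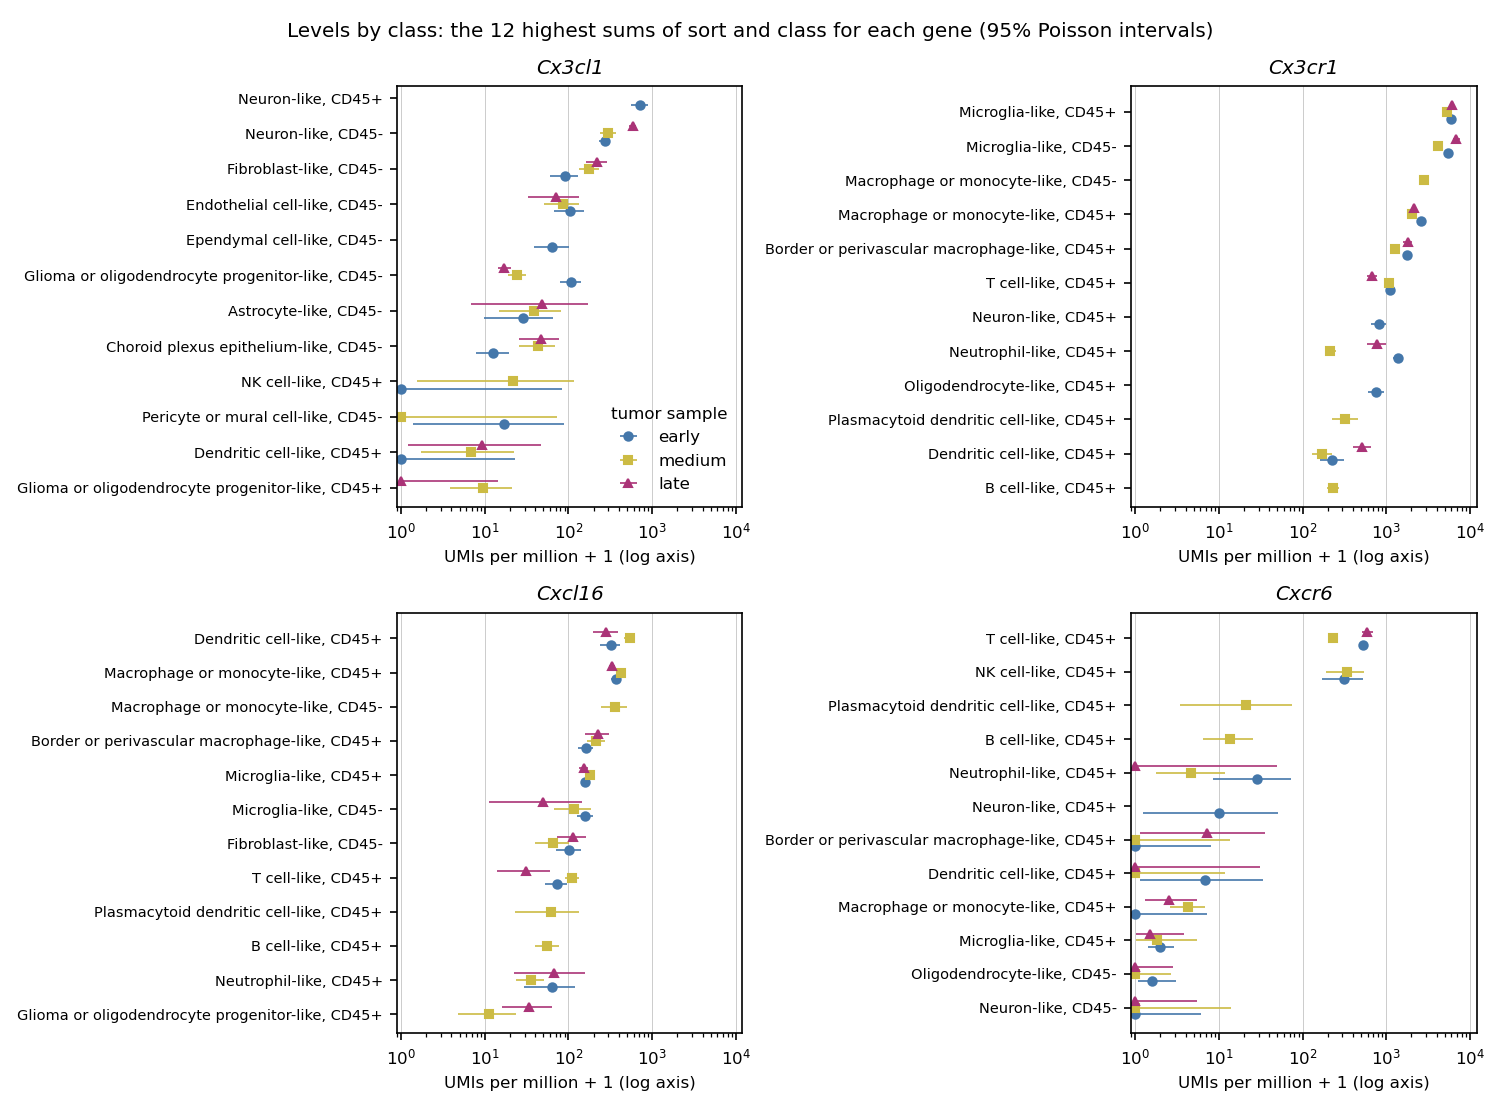
CPM plus 1 (log axis) for each gene in the 12 highest sums of sort and class, with 1 point per tumor sample of at least 20 cells (circle early, square medium, triangle late) and exact 95% Poisson intervals. Neuron-like cells lead for Cx3cl1, microglia-like cells for Cx3cr1 and T cell-like and NK cell-like cells for Cxcr6, while dendritic cell-like and macrophage or monocyte-like cells overlap at the top for Cxcl16.

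The genes whose levels were most like each of the 4 across 54 sums of tumor sample, sort and class were found by Pearson correlation of log2(CPM + 10), over 14677 genes. The sums share libraries and their markers, so the values are descriptions. For Cx3cl1 they included Rbfox2 (r = 0.91), a splicing factor of neurons and other cells, Arhgap44 (0.83), Plxna2 (0.83) and Epha4 (0.82), of which Plxna2 and Epha4 are axon guidance receptors. For Cx3cr1 they were the complement genes C1qc (0.98), C1qa (0.97) and C1qb (0.97), with Csf1r (0.98), the receptor that microglia and macrophages need to survive, and the protease gene Ctss (0.97). For Cxcl16 they were the antigen-presentation genes Cd74 (0.90), H2-Aa (0.88) and H2-Ab1 (0.88), with Bcl2a1a (0.87) and Ftl1 (0.87). For Cxcr6 they were Cd28 (0.97), Trbc1 (0.96), Icos (0.96), Gzmb (0.95) and Skap1 (0.95), all genes of T cells or cytotoxic lymphocytes. Among the 4 genes themselves, r was -0.54 for Cx3cl1 with Cx3cr1 and 0.02 for Cxcl16 with Cxcr6, and the highest value was 0.70, for Cx3cr1 with Cxcl16.

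Genes that act with the 2 axes were read from fixed lists in the sort comparison, where the median log2 fold change of all genes was -0.045 and 46.1% of all genes tested were called in either direction. Of 13 sheddases and their regulators, 6 were higher in CD45+ cells, 5 were lower and 2 did not pass (median 0.515), against 46.1% of all genes called. Ctss, whose product cathepsin S cuts Cx3cl1, was higher by 4.89 (SE 0.71; edgeR adjusted p = 0.0016), and Rhbdf2, which brings ADAM17 to the cell surface, by 2.71 (SE 0.40; edgeR adjusted p = 0.0013). Tspan15, a partner of ADAM10, was lower in CD45+ cells (-2.69, SE 0.20, edgeR adjusted p = 0.00010), as was the metalloprotease inhibitor Timp3 (-2.55, SE 0.34, edgeR adjusted p = 0.0010). The sheddase Adam17 was higher by 1.24 (SE 0.24; edgeR adjusted p = 0.0045). Adam10 did not pass, at 194.8, 150.3 and 204.0 CPM in CD45+ cells and 154.4, 151.2 and 187.1 CPM in CD45- cells (edgeR adjusted p = 0.078).

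Of 4 integrin subunits that bind the chemokine domain of Cx3cl1, Itga4 was higher in CD45+ cells (1.28, SE 0.32, edgeR adjusted p = 0.014), Itgav was lower (-0.88, SE 0.24, edgeR adjusted p = 0.020) and 2 did not pass. The median of the 4 was 0.414, and the share called was near the 46.1% of all genes. Of 18 genes of G protein signalling downstream of chemokine receptors, 13 were higher in CD45+ cells, none was lower and 5 did not pass (median 1.379), against 46.1% of all genes called. Rgs1, which shortens chemokine receptor signals in lymphocytes, was higher by 6.14 (SE 0.75), and the phospholipase Plcb2 by 5.40 (SE 0.44; edgeR adjusted p = 0.00077 and 0.00013).

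Of 7 scavenger receptors for oxidised lipoprotein, the other role of Cxcl16, 6 could be tested, 5 were higher in CD45+ cells and none was lower (median 4.256), against 46.1% of all genes called. Msr1 was higher by 8.01 (SE 0.50; edgeR adjusted p = 9.0e-05) and Cd68 by 5.23 (SE 0.63; edgeR adjusted p = 0.00074). Of 12 genes of tissue-resident lymphocytes, 11 could be tested, 9 were higher in CD45+ cells and none was lower (median 6.32, also with the genes at 0 set to their bound), against 46.1% of all genes called. Gzmb, at 20.7 to 28.96 CPM, and Ifng, at 6.32 to 42.8 CPM in CD45+ cells, had no UMI in any CD45- sum and passed (edgeR adjusted p = 0.00014 and 0.00016). Set against 3 counts over all CD45- cells, they were at least 203.6-fold and at least 216.3-fold higher. Of the last list, 9 of 11 genes were also higher in T cell-like than in macrophage or monocyte-like cells, where 19.4% of all genes tested were called. Lymphocyte genes are set apart by a CD45 sort and by a contrast of T cells with macrophages, so neither count bears on tissue residency. Scavenger receptors of macrophages are set apart by the sort in the same way. Genes far higher in CD45+ cells on the other lists, such as Rgs1, Plcb2 and Ctss, are open to the same reading, which was not tested. Itga1 (-0.60) and Bhlhe40 (0.37) did not pass between sorts (edgeR adjusted p = 0.17 and 0.18).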

How the data were processed

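Single cells of mouse glioblastoma were profiled by inDrop. The authors mapped reads with RapMap in bcbio-nextgen to GRCm38 with the transgenes and deposited UMI counts per gene and cell (counts, not normalized). Sort and stage came from the deposited library annotation, of unit other, which the authors wrote as text and not as a score. Its stage label large is written here as late. The authors state that ambient RNA and doublets were removed, and whether before deposit is not given in the sources used here.

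Of 20811 cells, those with at least 500 UMIs, 500 genes and at most 20% mitochondrial UMIs were kept, and 113 of 17786 cells tested (0.635%) were called doublets with scrublet in scanpy and left out. Cells were clustered (2000 variable genes, 40 components, 20 neighbours, Leiden resolution 1) and named from fixed markers, without these genes. A name needed 3 markers at least 2-fold higher in at least 10% of cells. Clusters in which the markers of more than 1 class passed were clustered again unless small, a step chosen after markers were seen. Of 70 clusters, 8 (711 cells) stayed unnamed.

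Counts were summed by tumor sample, sort and class and tested with edgeR 4.0.16 (TMM, quasi-likelihood, tumor sample as block) in R 4.3.3, two-sided, with Benjamini-Hochberg adjustment over all genes and a threshold of 0.05. The block follows the tumor sample, which gave both sorts; same-sample deviations correlated at 0.384, 0.280 and 0.302 over 18433 genes. Tests are printed where both groups together held at least 50 UMIs, a limit set after the data were seen. Stages have 1 tumor sample each and no test. Intervals cover counting error only: exact Poisson for CPM, exact conditional for ratios, Clopper-Pearson for shares (95%). P-values of the sort comparison measure how the difference between sorts varied over 3 tumor samples, which are also the 3 stages. The fit draws the spread of each gene toward that of the other genes. In the main class comparisons all classes of a sort entered 1 fit and shared 1 estimate of spread. The class p-values therefore rest on a spread pooled over classes, and NK cell-like cells entered with early and medium sums only.

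The members and gene lists were chosen with earlier results of these data known. Named genes were the 4 members, the 5 genes most like each, Ptprc, and in each list up to 2 genes in each direction with the largest change past the threshold; Adam10, Adam17 and Zmynd15 were added after their values were seen, as was the split by P2ry12 and Tmem119. Some items are not reported here. The fit was tested on simulated data.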

Additional observations from a re-analysis of the deposited data

Results flagged for a closer look

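In the late CD45+ sort, 1 of 4 libraries stood far from the others for both ligands. This library held 17 cells. Its Cx3cl1 level was 32.09 CPM, from 2 UMIs, against 5.42 to 9.04 CPM in the other 3. Its Cxcl16 level was 96.28 CPM, from 6 UMIs, against 207.6 to 223.3 CPM. With so few UMIs the counting interval of its Cx3cl1 level was 3.89 to 115.9 CPM. That of its Cxcl16 level was 35.3 to 209.6 CPM, so both intervals reached levels of other libraries. Run 1 libraries were also highest for Cx3cl1 in the early CD45+ sort, at 34.96 CPM (18.6 to 59.8, from 13 UMIs) against 7.30 to 13.2 CPM, and in the medium CD45+ sort, at 12.4 CPM (7.58 to 19.2, from 20 UMIs) against 1.55 to 4.42 CPM, though neither gap was large enough to be picked out. Of 20 groups of 4 libraries examined, 2 were picked out in this way. The nominal rate of the rule is about 1 in 20, and its rate for libraries of such unequal size was not estimated.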

How the results depend on the processing

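The 4 differences between sorts kept their direction and call in every alternative run, from -2.89 to -1.26 for Cx3cl1, 4.24 to 5.10 for Cx3cr1, 4.24 to 5.12 for Cxcl16 and 5.90 to 8.46 for Cxcr6, and with 1 tumor sample left out from -2.69 to -2.21, 4.00 to 5.31, 4.10 to 5.45 and 7.49 to 11.1. Genes called between sorts numbered 8976, and 3785 within run 1. Values below are log2 fold changes under edgeR unless a tool is named, and where a call changed the cause was not tested. Microglia-like over macrophage or monocyte-like Cx3cr1 (1.27) passed under DESeq2 (1.34), with cells named one by one (1.91), at Leiden resolution 2 (1.45) and with only these classes in the fit (1.20, where 3293 genes were called against 1656). Macrophage or monocyte-like over T cell-like Cx3cr1 (1.31) did not pass without TMM factors (1.19), without the replicate block (1.34), with doublets kept (1.22), with cells named one by one (0.69, with 1417 genes called against 2433) or at resolution 2 (1.00). Over its 10 alternatives this difference ranged from 0.69 to 2.98, and the call was not lost in all of them. No other call named in the text was changed by dropping the replicate block, except T cell-like over NK cell-like Cxcl16 (3.41 against 3.49).

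Between T cell-like and NK cell-like cells (24 and 25 NK cell-like cells), genes called (305) were 149 under DESeq2, 112 without TMM factors, 502 with doublets kept, 178 with cells of at least 1000 UMIs, 35 with cells named one by one and 140 with only these classes. Cx3cr1 (4.82) did not pass without TMM factors (4.15) or with cells named one by one (0.20). Cxcl16 did not pass under DESeq2 (2.93), without TMM factors (2.83), with at least 1000 UMIs (3.26), at resolution 2 (3.36) or with only these classes (3.42), and turned to -0.020 with cells named one by one. Under that naming, dendritic cell-like over macrophage or monocyte-like Cx3cr1 turned to 0.49 (161 genes called against 1208). Cxcl16 there (-0.04) was 0.019 without TMM factors and 0.068 with cells named one by one. For differences that did not pass, the sign of Cx3cr1 also turned in glioma or oligodendrocyte progenitor-like over oligodendrocyte-like cells (-0.11 with doublets kept) and in neuron-like over glioma or oligodendrocyte progenitor-like cells (0.24 with cells named one by one). Astrocyte-like over oligodendrocyte-like Cx3cr1 (2.84) passed at resolution 2 (3.39) and with only these classes (2.45). Of mean levels, naming cells one by one gave 84.5 CPM for fibroblast-like Cx3cl1 (160.6), 1474 for macrophage or monocyte-like Cx3cr1 (2258) and 208.6 for NK cell-like Cxcr6 (325.0), which was 285.4 with doublets kept and 299.6 as a mean over cells. Glioma or oligodendrocyte progenitor-like Cx3cl1 (48.6) was 24.1 CPM within run 1 and 54.4 with cells named one by one. Leaving out the Il13-led cluster, chosen after its values were seen, took late T cell-like Cxcr6 from 594.2 to 273.9 CPM. T cell-like Cx3cr1 (946.8) was 306.4 CPM in cells without P2ry12 and Tmem119 UMIs.

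With 1 tumor sample left out, genes called ranged from 1058 to 1155 (microglia-like against macrophage or monocyte-like), 1481 to 1850 (macrophage or monocyte-like against T cell-like), 69 to 297 (T cell-like against NK cell-like), 762 to 963 (dendritic cell-like), 2004 to 2278 (astrocyte-like) and 1511 to 3263 (neuron-like). Cx3cr1 ranged from 1.20 to 1.36, 1.23 to 1.58 and 3.77 to 5.76 in the first 3 of these, from 0.057 to 4.06 in the astrocyte-like and from -0.44 to 0.26 in the neuron-like comparison. Cxcl16 ranged from 2.57 to 8.72 between T cell-like and NK cell-like cells and from -0.31 to 0.023 in the dendritic cell-like comparison. Leaving out the early or the medium sample leaves 1 NK cell-like sum, assumed to vary like the other classes. Of called differences, macrophage or monocyte-like over T cell-like ranged from 2.30 to 2.85 for Cxcl16 and -8.59 to -6.59 for Cxcr6, dendritic cell-like Cx3cr1 from -3.63 to -2.79, and Cx3cl1 from 6.69 to 7.75 (endothelial-like), 4.65 to 7.02 (glioma or oligodendrocyte progenitor-like) and 2.28 to 4.45 (neuron-like). NK cell-like Cxcr6 ranged from 286.8 to 334.8 CPM over the libraries that could be left out, and 4 others gave no value because too few cells remained. Depth limits the CD45- sort for Cxcr6 (3 UMIs) and every class under 50 UMIs.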
